A study of Mus musculus with 13 samples.

Results

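Mature FL-cDC2s, sorted as CD115- CX3CR1- CD83+ cells, were compared with the CD115+ CX3CR1+ cells that lie in the same cDC2 gate of a bone marrow culture with FLT3L (FL-BM culture) and that the study names non-DCs and also pre-cDC2s. The comparison used 4 of the 13 RNA-seq libraries of the series, 2 for each subset, picked by their sample labels and not by any measured value. All genes were followed: 13242 of the 24532 genes in the deposited table held enough reads to be tested, and 7084 of them (53.5%) passed the test.

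Bone marrow was flushed from femurs and tibias of adult C57BL/6 mice and cultured with FLT3L or with GM-CSF (GM-BM culture), and subsets of CD11c+ cells were sorted for bulk RNA-seq. No engineered allele is named for any subset, and no source used here gives the number of mice, their sex or whether the 2 libraries of a subset came from separate cultures. RNA of each of these subsets was extracted 2 times, so p-values measure the spread between such libraries, which may be technical. The cDC2 gate held B220- MHCII+ cells with little CD24 and with CD172a, and all of the cDC2-gated subsets here were sorted as high in MHCII. Mature FL-cDC2s carried CD83 and lacked CD115 and CX3CR1. Non-DCs carried CD115 and CX3CR1. A further subset, immature FL-cDC2s (CD115- CX3CR1- CD83-, 2 libraries), entered the same fit to estimate the spread. GM-DCs and GM-Macs (2 libraries each) came from GM-BM culture. All subsets arose in vitro from unsorted marrow, and a library stands for a sorted bulk population, in which fewer cells of a type and less RNA per cell cannot be told apart.

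Conventional dendritic cells (cDCs) take up antigen as immature cells. On maturation they stop most uptake, move MHC molecules loaded with peptide to the surface, express costimulatory ligands and the chemokine receptor CCR7, and migrate to lymph nodes to prime naive T cells. Macrophages, whose survival depends on the CSF1 receptor CD115, keep strong phagocytic, complement, scavenging and lysosomal programmes. FLT3L supports the dendritic branch from progenitors that also have monocyte and macrophage potential, so that both kinds of cell can share a culture.

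The 4 libraries held between 46931064 and 63897262 reads in genes, of which a gene with 3 reads stands for 0.0470 to 0.0639 CPM (reads scaled to library depth). Reads were scaled by trimmed mean of M-values (TMM), with factors from 0.818 to 0.963 in these libraries and up to 1.32 in immature FL-cDC2s. The libraries of a pair were distinct, with a biological coefficient of variation of 26.8% in mature FL-cDC2s and 18.7% in non-DCs. Levels are given per library, replicate 1 then replicate 2, in FPKM, which are fragments scaled by transcript length and library depth. Differences are log2 fold changes of mature FL-cDC2s over non-DCs from the edgeR fit to read counts, with standard errors after ±, and a gene is called higher or lower at a Benjamini-Hochberg adjusted p below 0.05 over all genes tested. Where a gene had 0 reads in both libraries of a subset, the fold is a lower bound that takes 3 reads in each of them.

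The sorting proteins were checked first in RNA, since they define the labels. Cd83, the gene of the maturation marker used in the sort, had 3721 and 3888 FPKM in mature FL-cDC2s, against 84.99 and 90.9 FPKM in non-DCs, a difference of 5.23 ± 0.34 (adjusted p = 1.49e-05). Csf1r, which encodes CD115, had 0.833 and 0.799 FPKM in mature FL-cDC2s, against 1157 and 1243 FPKM in non-DCs, a difference of -10.73 ± 0.55 (adjusted p = 5.34e-06). Cx3cr1, the fractalkine receptor gene, had 0.00861 and 0.0574 FPKM in mature FL-cDC2s, against 161 and 89.9 FPKM in non-DCs, a difference of -11.97 ± 0.61 (adjusted p = 5.15e-06). All of these genes lay on the side that the sort gave them, with no overlap between the subsets.

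Among the remaining genes of the gate, Ptprc (CD45) had 72.98 and 37.7 FPKM in mature FL-cDC2s, against 176 and 170.3 FPKM in non-DCs (-1.85). Itgax, the gene of CD11c, had 2.27 and 1.94 FPKM in mature FL-cDC2s, against 24.4 and 28.2 FPKM in non-DCs (-3.85), and both subsets had been gated on that protein. Sirpa, the gene of CD172a, had 58.1 and 39.02 FPKM in mature FL-cDC2s, against 603 and 643 FPKM in non-DCs (-3.91). Cd24a was opposite in direction, with 15.7 and 16.3 FPKM in mature FL-cDC2s, against 0.488 and 0.256 FPKM in non-DCs (5.17). H2-Ab1, an MHC class II beta chain, had 4429 and 5270.4 FPKM in mature FL-cDC2s, against 8549 and 6546 FPKM in non-DCs (-0.84 ± 0.25, adjusted p = 0.0209). The H2-Ab1 call was lost under some alternatives (adjusted p = 0.172 in the fit of 13 libraries, 0.116 without mature FL-cDC2 replicate 1, 0.123 without non-DC replicate 1).

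The markers named for this comparison separated the subsets by a wide margin. Ccr7, the receptor that directs mature dendritic cells towards lymph nodes, had 6939.6 and 10488 FPKM in mature FL-cDC2s, against 23.7 and 13.1 FPKM in non-DCs, a difference of 8.71 ± 0.57 (adjusted p = 1.49e-05). Klri1, a killer cell lectin-like receptor gene, had 28.7 and 29.1 FPKM in mature FL-cDC2s, against 0 FPKM in both non-DC libraries, which was at least 357-fold higher (adjusted p = 5.18e-06). C1qc, a chain of the complement starter C1q, had 0 FPKM in both mature FL-cDC2 libraries, against 385 and 289 FPKM in non-DCs, which was at least 8674-fold lower (adjusted p = 0.000595). Tlr8, an endosomal receptor for RNA, had 0 FPKM in both mature FL-cDC2 libraries, against 24.6 and 29.8 FPKM in non-DCs, which was at least 3337-fold lower (adjusted p = 1.27e-05). Of these 4 genes, Klri1 did not follow maturation within the gate, since it had 39.7 and 39.5 FPKM in immature FL-cDC2s, whereas Ccr7 stood at 18.7 and 32.9 FPKM in immature FL-cDC2s.

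**Figure D1:**
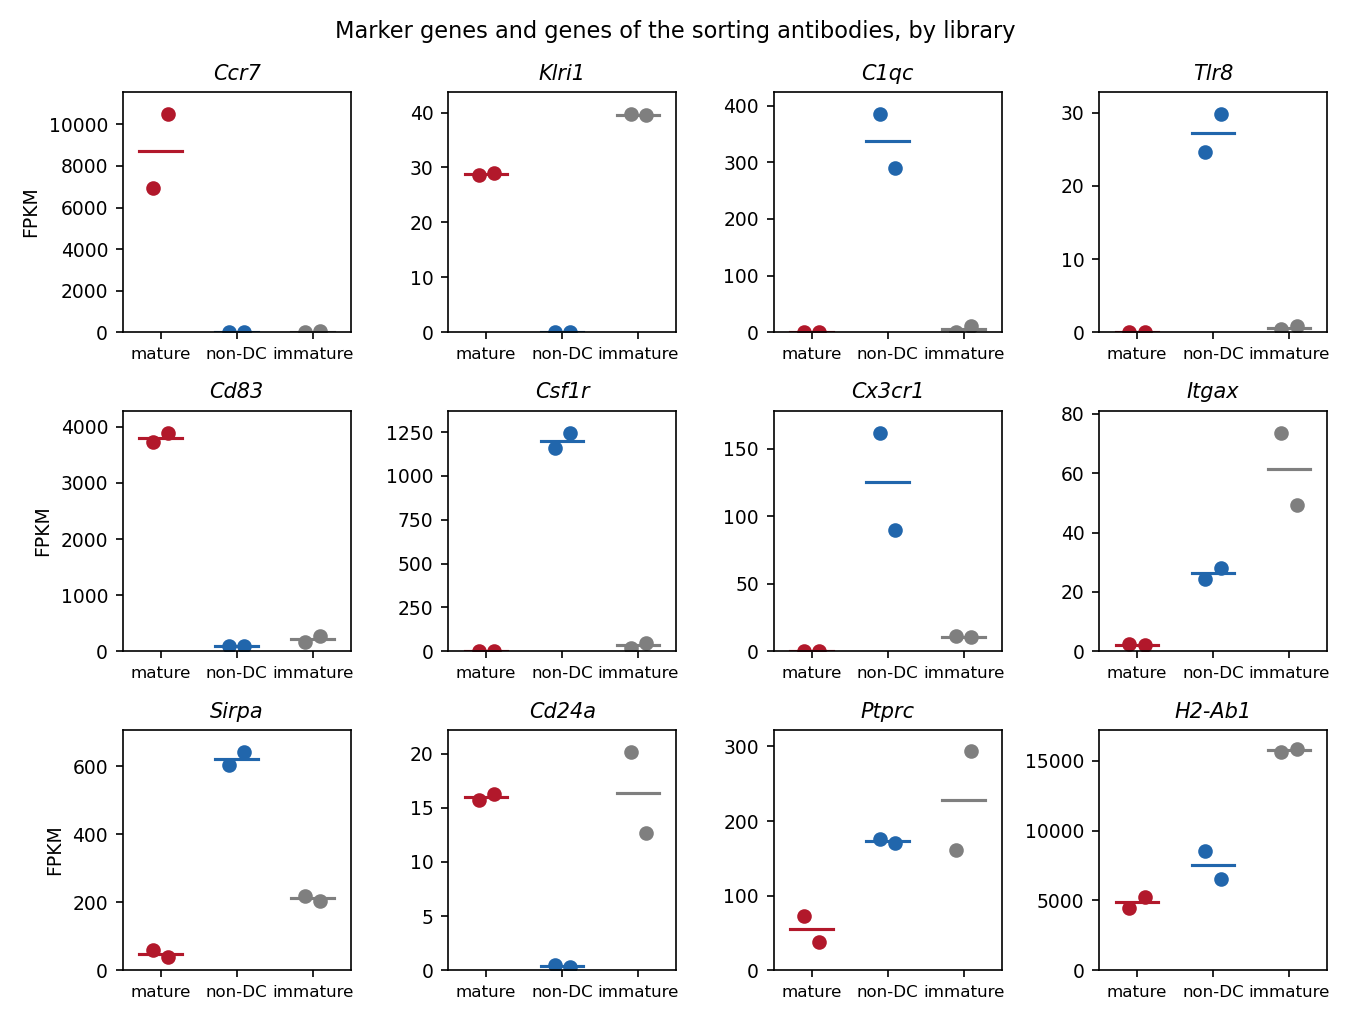
Levels of 12 marker and sorting genes in FPKM (vertical axis of each panel) in the libraries of mature FL-cDC2s, non-DCs and immature FL-cDC2s, with 1 point per library and a line at the mean of 2. Ccr7 and Cd83 were high in both mature FL-cDC2 libraries, and Csf1r, Cx3cr1, C1qc and Tlr8 in both non-DC libraries.

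The difference took in much of the transcriptome and was even in direction. Of 13242 genes tested, 3499 (26.4%) were higher and 3585 (27.1%) lower in mature FL-cDC2s. At least 4-fold changes were called for 1614 higher and 1713 lower genes, and at least 256-fold changes for 283 and 289. Genes called higher made up 53.2% and 54.6% of the summed FPKM in mature FL-cDC2s, against 11.9% and 11.2% in non-DCs. Genes called lower made up 14.0% and 13.4% of it in mature FL-cDC2s, against 59.4% and 60.5% in non-DCs. Because a gene could pass the filter on low counts through the subset where it was high, list counts below are read beside these shares, and the median difference over all genes tested was 0.065. At each called gene named below except Cebpb, both libraries of 1 subset lay above both libraries of the other. For the largest changes this was a condition of their choice. The share of all genes so separated is not given, so this separation is a description.

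The counts rested on the number of libraries. They fell to 2324 higher and 2677 lower without non-DC replicate 1, and to 2172 higher and 2549 lower without non-DC replicate 2. The split between directions depended on scaling: 49.4% of calls were higher with TMM and 58.0% with library size alone, which moved the median of all genes to 0.28.

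**Figure D2:**
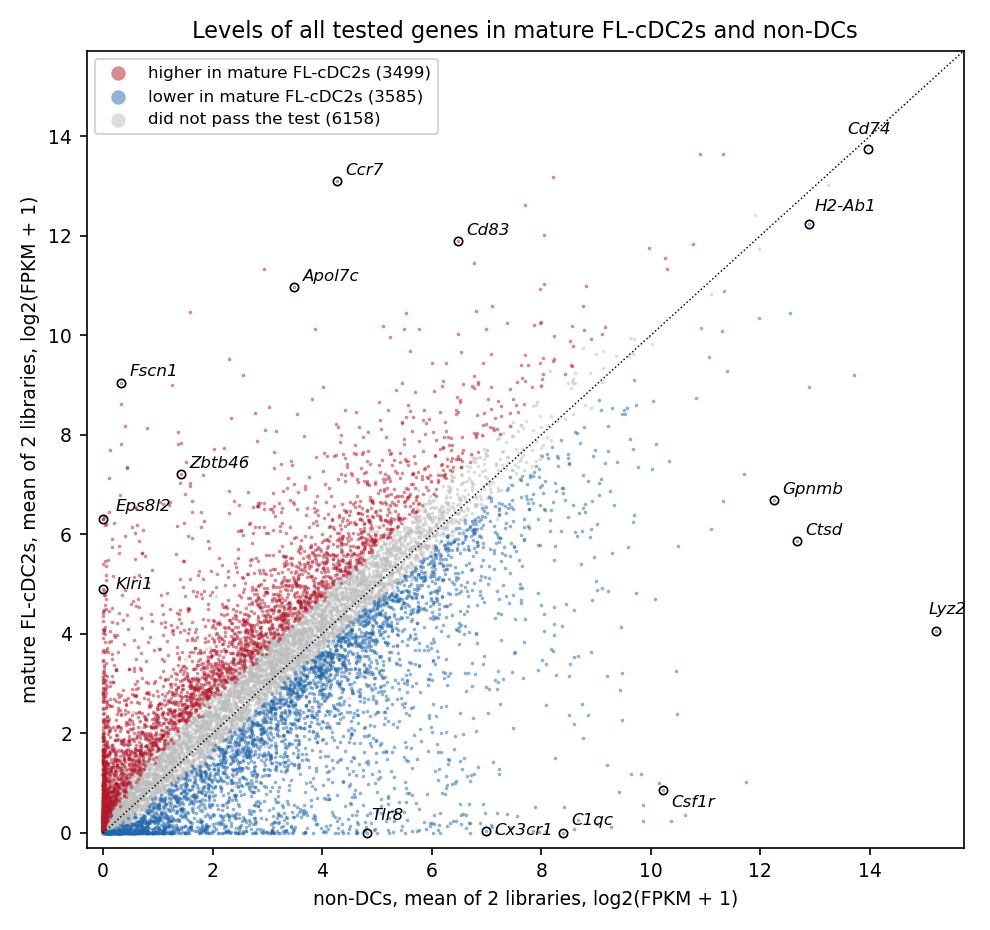
Mean level of each tested gene as log2(FPKM + 1) in mature FL-cDC2s (vertical axis) against non-DCs (horizontal axis), with 1 point per gene. Red points are the 3499 genes called higher, blue points the 3585 called lower and grey points those that did not pass; the named genes lie far from the diagonal on both sides, except Cd74 and H2-Ab1, which are abundant in both subsets.

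The most abundant transcripts already set the subsets apart. Cd74, the invariant chain of MHC class II, had 13136 and 14369 FPKM in mature FL-cDC2s, against 17074 and 15125 FPKM in non-DCs, and its difference of -0.46 ± 0.23 did not pass the test (adjusted p = 0.131). Mature FL-cDC2s otherwise ranked Actb, Tmsb4x, Tmem123, Ccr7, Ftl1, Cst3, H2-D1, H2-Ab1 and Syngr2 among their 10 highest genes. Tmem123, which encodes the surface glycoprotein porimin, had 10362 and 8148 FPKM in mature FL-cDC2s, against 307 and 286 FPKM in non-DCs (4.75). Syngr2, which encodes synaptogyrin 2, had 3717 and 4504 FPKM in mature FL-cDC2s, against 295 and 236 FPKM in non-DCs (3.75). Non-DCs ranked Lyz2, Cd74, Fth1, Ftl1, Psap, H2-Ab1, Ctsd, Ctss, Gpnmb and Eno1 highest. Lyz2, the macrophage lysozyme, was the top gene there and had 13.8 and 17.6 FPKM in mature FL-cDC2s, against 40595 and 35472 FPKM in non-DCs, a difference of -11.45 ± 0.59 (adjusted p = 5.19e-06). Gpnmb, a glycoprotein of lysosome-rich phagocytes, had 79.7 and 125 FPKM in mature FL-cDC2s, against 4380.3 and 5320.2 FPKM in non-DCs (-5.78). Psap, Ctsd and Ctss in this ranking encode lysosomal proteins, and 3 genes (Cd74, Ftl1 and H2-Ab1) were in both rankings.

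Genes of dendritic cell maturation were almost all higher in mature FL-cDC2s: of 28 tested, 27 were higher and 1 was lower, and the median difference was 4.87. Their summed level was 34298 and 35323 FPKM in mature FL-cDC2s, against 2134 and 2019 FPKM in non-DCs. Adcy6, an adenylyl cyclase that makes cAMP, had 20.3 and 20.4 FPKM in mature FL-cDC2s, against 0 and 0.00482 FPKM in non-DCs (12.29 ± 0.49). Fscn1, the actin-bundling protein fascin of dendrites, had 622 and 435 FPKM in mature FL-cDC2s, against 0.243 and 0.281 FPKM in non-DCs (10.76 ± 0.43). Tnfrsf4, which encodes the receptor OX40, had 123 and 154 FPKM in mature FL-cDC2s, against 0.0623 and 0.0911 FPKM in non-DCs (10.45 ± 0.34). These genes were close to 0 in both non-DC libraries. Cd83, taken as a marker of mature dendritic cells, lay on the side that the sort set and is no separate result.

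Other members of that list were high in absolute terms. Nudt17, a nudix hydrolase gene, had 355 and 425 FPKM in mature FL-cDC2s, against 0.280 and 0.239 FPKM in non-DCs (10.29 ± 0.87). Cacnb3, a calcium channel subunit, had 1557 and 1264 FPKM in mature FL-cDC2s, against 2.64 and 1.36 FPKM in non-DCs (9.20). Immature FL-cDC2s, which share the gate, summed to 967 and 1157 FPKM over the same 28 genes, below non-DCs. The exception was H2-M2, a nonclassical MHC class I gene placed in the list, with 192 and 255 FPKM in mature FL-cDC2s, against 1129 and 1057 FPKM in non-DCs (-2.49 ± 0.26).

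Transcription factors followed the same division. Of 24 dendritic cell factors tested, 17 were higher and 2 lower in mature FL-cDC2s (median 2.54). Zbtb46, a factor of the cDC lineage, had 168 and 127 FPKM in mature FL-cDC2s, against 1.80 and 1.53 FPKM in non-DCs (6.22 ± 0.31). Stat4, which transmits IL-12 signals, had 215 and 240.4 FPKM in mature FL-cDC2s, against 1.73 and 1.65 FPKM in non-DCs (6.86 ± 0.24). Nr4a3, an orphan nuclear receptor, had 16.6 and 27.1 FPKM in mature FL-cDC2s, against 0.162 and 0.0823 FPKM in non-DCs (7.22), and Ikzf4, which encodes the zinc finger protein Eos, had 5.83 and 6.19 FPKM in mature FL-cDC2s, against 0 FPKM in both non-DC libraries, at least 318-fold higher. The factors that went the other way were Zeb2, with 5.95 and 4.53 FPKM in mature FL-cDC2s, against 26.1 and 23.8 FPKM in non-DCs (-2.49), and Batf, with 4.45 and 3.45 FPKM in mature FL-cDC2s, against 12.4 and 9.55 FPKM in non-DCs (-1.68).

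Of 23 macrophage factors, 3 were higher and 17 lower in mature FL-cDC2s (median -2.13). Maf, a bZIP factor, had 0.00887 and 0.0159 FPKM in mature FL-cDC2s, against 2.16 and 2.86 FPKM in non-DCs (-7.75 ± 0.91). Mitf, a factor of lysosome-rich cells, had 0.0297 and 0.160 FPKM in mature FL-cDC2s, against 9.81 and 7.72 FPKM in non-DCs (-6.71). Bhlhe41, a basic helix-loop-helix repressor, had 0 and 0.00306 FPKM in mature FL-cDC2s, against 2.40 and 3.27 FPKM in non-DCs (-10.11). All of these were at or near 0 in mature FL-cDC2s. The members on the other side were Runx3, with 16.4 and 23.6 FPKM in mature FL-cDC2s, against 4.12 and 3.50 FPKM in non-DCs (2.19), Bhlhe40 and Irf5. Bhlhe40, in the same family as Bhlhe41, had 526 and 543 FPKM in mature FL-cDC2s, against 114 and 114 FPKM in non-DCs (2.02). Irf5 had 282 and 260.1 FPKM in mature FL-cDC2s, against 144 and 136 FPKM in non-DCs (0.73), a call that was lost when a non-DC library was left out (adjusted p = 0.0791 without non-DC replicate 1, 0.108 without non-DC replicate 2). Spi1, the gene of PU.1, had 319.6 and 346 FPKM in mature FL-cDC2s, against 279 and 221 FPKM in non-DCs and did not pass the test (0.21 ± 0.20, adjusted p = 0.423).

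The NF-kB pathway drives much of dendritic cell maturation, and 17 of its 23 genes tested were higher and 1 lower in mature FL-cDC2s (median 1.76). Map3k14, the kinase NIK of the noncanonical branch, had 103 and 89.4 FPKM in mature FL-cDC2s, against 1.09 and 1.18 FPKM in non-DCs (6.19 ± 0.26). Relb, the partner subunit of that branch, had 1150.1 and 1094 FPKM in mature FL-cDC2s, against 47.98 and 40.2 FPKM in non-DCs (4.46 ± 0.22). Birc2, the ubiquitin ligase cIAP1, had 282 and 217 FPKM in mature FL-cDC2s, against 11.95 and 11.6 FPKM in non-DCs (4.19 ± 0.27). Rel, the subunit c-Rel, had 89.01 and 99.9 FPKM in mature FL-cDC2s, against 7.56 and 4.50 FPKM in non-DCs (3.76 ± 0.46). The subsets did not overlap at any of these genes. Tnip3, a binding partner of the inhibitor A20, was the member that went down, with 36.4 and 40.4 FPKM in mature FL-cDC2s, against 71.7 and 60.4 FPKM in non-DCs (-0.99), and lost its call without a library (adjusted p = 0.0560 without non-DC replicate 1).

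Because members of this list moved together, their promoters were read for the letters of an NF-kB site, GGGNNTTTC or GAAANNCCC on the other strand. The letters stood in 4.36% of 32851 promoter windows and in 5.06% of 27025 genes with a window, which runs from 250 bases before to 50 bases after a gene's start in RefSeq on GRCm38.p6. Of 19 listed genes with a window, 7 held them (Nfkb2, Nfkbia, Rel, Rela, Tnfaip3, Traf2 and Traf3). They were in 2 of 21 mature dendritic cell genes, 1 of 12 complement genes and 0 of 24 macrophage marker genes. Stretches of 100 bases around a match are shown for Rel and for 2 genes of the pathway chosen after their values were seen, Nfkb2 (the precursor of p52) and Nfkbia (the inhibitor IkBa), with the matching letters in capitals, each read 5′ to 3′ on the gene's own strand. They lie at chr19:46304637-46304736 (plus strand), chr11:23771006-23771105 (minus strand) and chr12:55492707-55492806 (minus strand).
Nfkb2: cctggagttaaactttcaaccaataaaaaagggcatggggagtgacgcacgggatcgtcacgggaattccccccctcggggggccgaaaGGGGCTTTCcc
Rel: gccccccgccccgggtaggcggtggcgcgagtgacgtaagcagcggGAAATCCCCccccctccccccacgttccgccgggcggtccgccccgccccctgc
Nfkbia: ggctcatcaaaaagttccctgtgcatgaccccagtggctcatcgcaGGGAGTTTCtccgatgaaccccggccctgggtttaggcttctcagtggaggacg
Nfkb2 had 338 and 288 FPKM in mature FL-cDC2s, against 55.8 and 57.3 FPKM in non-DCs (2.25 ± 0.19), and Nfkbia had 511 and 887 FPKM in mature FL-cDC2s, against 144 and 98.6 FPKM in non-DCs (2.32 ± 0.33). Over all genes tested, the letters were in 5.24% of genes called higher, 4.96% of those called lower and 5.32% of those that did not pass, A match in the letters is a description and not a bound site.

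Among chemokine ligands, 6 of 19 tested were higher and 10 lower in mature FL-cDC2s (median -4.11, or -2.53 with members at their bound). Some of the ligands that were higher attract T cells. Ccl22, a ligand of CCR4, had 2552 and 2559 FPKM in mature FL-cDC2s, against 8.77 and 4.49 FPKM in non-DCs (8.38 ± 0.44). Ccl17, also a ligand of CCR4, had 10.4 and 20.7 FPKM in mature FL-cDC2s, against 0.175 and 0 FPKM in non-DCs (7.13). Ccl5, which attracts T cells, had 1104 and 1776 FPKM in mature FL-cDC2s, against 166 and 56.7 FPKM in non-DCs (3.49). Cx3cl1, the ligand of the very receptor by which non-DCs were sorted, had 194 and 129.6 FPKM in mature FL-cDC2s, against 0.373 and 0.349 FPKM in non-DCs (8.58 ± 0.58). At the low end of expression, Ccl19, a ligand of CCR7, had 0.825 and 1.14 FPKM in mature FL-cDC2s, against 0 FPKM in both non-DC libraries, at least 10.6-fold higher (adjusted p = 0.0534 without mature FL-cDC2 replicate 2). Cxcl16 had 830.0 and 919 FPKM in mature FL-cDC2s, against 389 and 376 FPKM in non-DCs (0.99), a call that did not hold in every set of libraries (adjusted p = 0.0508 without mature FL-cDC2 replicate 2, 0.0586 without non-DC replicate 1, 0.0685 without non-DC replicate 2).

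Some ligands that draw monocytes and neutrophils were low in mature FL-cDC2s, and the lists of higher and lower ligands were not divided by target cell. Ccl6 had 9.23 and 7.28 FPKM in mature FL-cDC2s, against 612 and 809.7 FPKM in non-DCs (-6.64 ± 0.32). Pf4, a platelet factor that macrophages can also express, had 0 and 0.0523 FPKM in mature FL-cDC2s, against 14.7 and 16.1 FPKM in non-DCs (-9.20). Ccl7, a ligand of CCR2, had 0 FPKM in both mature FL-cDC2 libraries, against 0.484 and 1.64 FPKM in non-DCs, at least 21.1-fold lower. Receptors were also split, with 3 of 14 higher and 8 lower (median -2.42). The 8 include Cx3cr1, whose side was set by the sort. Besides Ccr7, Cxcr5, which guides cells to B cell follicles, had 29.5 and 23.04 FPKM in mature FL-cDC2s, against 0.0413 and 0.0161 FPKM in non-DCs (9.24 ± 0.53), and Ccr6, the receptor for CCL20, had 42.9 and 44.9 FPKM in mature FL-cDC2s, against 0.0969 and 0.0240 FPKM in non-DCs (adjusted p = 3.34e-06). Ccr1 had 0.311 and 0.251 FPKM in mature FL-cDC2s, against 90.7 and 104 FPKM in non-DCs (-8.62), and Ccr2, the receptor of inflammatory monocytes, had 1.22 and 0.981 FPKM in mature FL-cDC2s, against 71.9 and 64.5 FPKM in non-DCs (-6.16). Both were thus high in both non-DC libraries and low in both mature FL-cDC2 libraries.

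Costimulatory and coinhibitory genes were mixed, with 11 of 19 tested higher and 4 lower in mature FL-cDC2s (median 1.94), and the number lower fell to 2 without non-DC replicate 1, non-DC replicate 2 or mature FL-cDC2 replicate 1. Icosl, the ligand of ICOS on T cells, had 193 and 98.4 FPKM in mature FL-cDC2s, against 2.67 and 2.43 FPKM in non-DCs (5.62 ± 0.36). Btla, an inhibitory receptor, had 35.6 and 21.7 FPKM in mature FL-cDC2s, against 0.331 and 0.314 FPKM in non-DCs (6.24). Cd200, the ligand of an inhibitory receptor on myeloid cells, had 215 and 186 FPKM in mature FL-cDC2s, against 7.47 and 8.01 FPKM in non-DCs (4.49). Cd70, the ligand of CD27, was low in both subsets, with 1.32 and 2.98 FPKM in mature FL-cDC2s, against 0.0427 and 0 FPKM in non-DCs (5.71, adjusted p = 0.0552 without mature FL-cDC2 replicate 2). On the other side, Cd48 had 11.9 and 14.4 FPKM in mature FL-cDC2s, against 122 and 104 FPKM in non-DCs (-3.31). Cd274, which encodes PD-L1, had 58.3 and 51.1 FPKM in mature FL-cDC2s, against 74.9 and 84.8 FPKM in non-DCs (-0.75 ± 0.26, adjusted p = 0.0379), a small difference whose call was lost under 12 of 15 alternatives, among them library size alone and each left-out library (adjusted p = 0.166 in the fit of 13 libraries, 0.0851 with library size alone, 0.0576 with replicate block, 0.0902 without mature FL-cDC2 replicate 1, 0.156 without mature FL-cDC2 replicate 2, 0.0904 without non-DC replicate 1, 0.186 without non-DC replicate 2). Cd86, the ligand of CD28 and CTLA-4, overlapped between the subsets, with 60.3 and 52.8 FPKM in mature FL-cDC2s, against 52.4 and 53.1 FPKM in non-DCs (-0.11 ± 0.23, adjusted p = 0.719), whereas Cd40, chosen after its values were seen, had 319 and 400.5 FPKM in mature FL-cDC2s, against 22.8 and 17.9 FPKM in non-DCs (3.93 ± 0.24).

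Cytokines that direct T cells were mostly lower, with 4 of 14 tested higher and 8 lower (median -2.09). Il12b, the p40 subunit of IL-12 and IL-23, was the main exception, with 753 and 714 FPKM in mature FL-cDC2s, against 3.61 and 4.24 FPKM in non-DCs (7.33 ± 0.32). Il15, a survival factor for memory T cells and NK cells, had 39.9 and 56.7 FPKM in mature FL-cDC2s, against 12.2 and 10.1 FPKM in non-DCs (1.91). Il6 had 7.11 and 6.85 FPKM in mature FL-cDC2s, against 0.514 and 0.476 FPKM in non-DCs (3.58). Il1b had 214 and 277 FPKM in mature FL-cDC2s, against 123 and 100.1 FPKM in non-DCs (0.93), a call that was lost under some alternatives (adjusted p = 0.0836 in the fit of 13 libraries, 0.0529 without mature FL-cDC2 replicate 2, 0.0978 without non-DC replicate 2). Il1a had 0.257 and 0.412 FPKM in mature FL-cDC2s, against 30.6 and 49.3 FPKM in non-DCs (-7.09 ± 0.68), and Tnf had 2.46 and 1.88 FPKM in mature FL-cDC2s, against 14.6 and 11.6 FPKM in non-DCs (-2.81). Il10, the suppressive cytokine, had 0 FPKM in both mature FL-cDC2 libraries, against 0.568 and 0.371 FPKM in non-DCs, at least 15.1-fold lower, and was therefore scarce in both subsets.

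Over all genes, the largest increases among those of at least 10 FPKM were led by Eps8l2, an actin regulator related to EPS8 and a member of a list below, with 78.04 and 77.5 FPKM in mature FL-cDC2s, against 0 FPKM in both non-DC libraries, at least 3519-fold higher (adjusted p = 4.70e-06). Ceacam15, an adhesion molecule relative, had 66.4 and 90.6 FPKM in mature FL-cDC2s, against 0 FPKM in both non-DC libraries, at least 1615-fold higher. Tmem150c, a membrane protein gene, had 21.1 and 21.0001 FPKM in mature FL-cDC2s, against 0 FPKM in both non-DC libraries, at least 957-fold higher. Oprd1, the delta opioid receptor, had 11.99 and 10.8 FPKM in mature FL-cDC2s, against 0 FPKM in both non-DC libraries, at least 676-fold higher. All of these were at 0 reads in both non-DC libraries, as were 12 genes of at least 10 FPKM in mature FL-cDC2s in all.

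Sod3, an extracellular superoxide dismutase, had 13.2 and 22.9 FPKM in mature FL-cDC2s, against 0 FPKM in both non-DC libraries, at least 545-fold higher. Pdcd1, the inhibitory receptor PD-1, had 9.16 and 11.2 FPKM in mature FL-cDC2s, against 0 FPKM in both non-DC libraries, at least 289.8-fold higher. Tcf7, the factor TCF-1 known from T cells, had 88.4 and 72.3 FPKM in mature FL-cDC2s, against 0.0198 and 0 FPKM in non-DCs (12.57 ± 0.49). Dscaml1, a cell adhesion molecule of neurons, had 43.9 and 38.6 FPKM in mature FL-cDC2s, against 0 and 0.00612 FPKM in non-DCs (13.49 ± 0.67). The same ranking held Klri1 and Adcy6, described above, and Mmp23, Gm9994, Boll and Calm5, with bounds from at least 131-fold to at least 284-fold. Gm9855, a predicted gene, had 23.6 and 15.4 FPKM in mature FL-cDC2s, against 0 FPKM in both non-DC libraries, but lost its call without any 1 library and in the wider fit (adjusted p = 0.0841 in the fit of 13 libraries, 0.0763 without mature FL-cDC2 replicate 1, 0.0634 without mature FL-cDC2 replicate 2, 0.0732 without non-DC replicate 1, 0.0744 without non-DC replicate 2), and its 2 immature FL-cDC2 libraries were at 0 and 38.2 FPKM.

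The apolipoprotein L genes were a further group with large increases in mature FL-cDC2s: 6 of 8 tested were higher and 0 lower (median 7.93, or 4.70 with members at their bound). Apol7c, the most abundant of them, had 2047 and 1947 FPKM in mature FL-cDC2s, against 10.4 and 10.1 FPKM in non-DCs (7.40 ± 0.30). Apol10b had 50.6 and 55.1 FPKM in mature FL-cDC2s, against 0.0362 and 0.212 FPKM in non-DCs (8.45). Apol7a had 13.4 and 13.1 FPKM in mature FL-cDC2s, against 0.0709 and 0.0791 FPKM in non-DCs (7.20), and Apol7e had 1.40 and 1.10 FPKM in mature FL-cDC2s, against 0 FPKM in both non-DC libraries, at least 41.03-fold higher. Apol7b had 0.352 and 0.367 FPKM in mature FL-cDC2s, against 0 FPKM in both non-DC libraries, at least 11.98-fold higher, and its call was lost without any 1 library (adjusted p = 0.0517 without mature FL-cDC2 replicate 1, 0.0522 without mature FL-cDC2 replicate 2, 0.0596 without non-DC replicate 1, 0.0577 without non-DC replicate 2). No more than 2 members were lower under any alternative, and reads shared between these near-identical genes may have been split in counting. The family summed to 2114 and 2017 FPKM in mature FL-cDC2s, against 10.8 and 10.6 FPKM in non-DCs, and to 2.37 and 3.38 FPKM in immature FL-cDC2s.

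Killer cell lectin-like receptors, best known from NK cells, were higher for 7 of 11 members tested and lower for 2 (median 6.17, or 4.45 with members at their bound). Klrk1, the receptor NKG2D, had 54.3 and 59.96 FPKM in mature FL-cDC2s, against 0.686 and 0.458 FPKM in non-DCs (6.41 ± 0.30). Klrd1, the CD94 chain, had 16.6 and 18.8 FPKM in mature FL-cDC2s, against 0.269 and 0.122 FPKM in non-DCs (6.17 ± 0.40), and Klri2 had 12.7 and 10.9 FPKM in mature FL-cDC2s, against 0.0322 and 0.0431 FPKM in non-DCs (7.99). Klra2 had 0 FPKM in both mature FL-cDC2 libraries, against 1.34 and 0.940 FPKM in non-DCs, at least 51.8-fold lower. Unlike the apolipoprotein L genes, this family was higher still in immature FL-cDC2s, at a sum of 329 and 280.2 FPKM, against 122 and 128 FPKM in mature FL-cDC2s. The NK cell genes Ncr1, Gzma and Prf1 had 0 reads in these 4 libraries, but other members of the NK cell list were detected. Of 3 NK cell genes tested, 2 were higher and 1 lower in mature FL-cDC2s. The list summed to 17.4 and 19.9 FPKM in mature FL-cDC2s, against 0.713 and 0.649 FPKM in non-DCs. In immature FL-cDC2s its sum was 117 and 72.2 FPKM. Reads of Klri1 and Klri2 could be shared between the genes.

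Genes of the MHC class I pathway were mostly higher in mature FL-cDC2s, and those of the class II pathway were split. Of 22 class I genes tested, 14 were higher and 4 lower in mature FL-cDC2s (median 1.04). Nlrc5, the transactivator of class I genes, had 19.2 and 16.9 FPKM in mature FL-cDC2s, against 0.680 and 1.01 FPKM in non-DCs (4.20 ± 0.29). Psme2, an activator of the proteasome, had 934 and 1305 FPKM in mature FL-cDC2s, against 147 and 106 FPKM in non-DCs (2.94 ± 0.29). Tapbpl, a peptide editor related to tapasin, had 183 and 204 FPKM in mature FL-cDC2s, against 25.5 and 25.8 FPKM in non-DCs (2.71 ± 0.21). Tap1, a chain of the peptide transporter, had 226 and 186 FPKM in mature FL-cDC2s, against 36.4 and 35.99 FPKM in non-DCs (2.30). Chaperones of the endoplasmic reticulum went the other way, with 114 and 85.4 FPKM in mature FL-cDC2s, against 271 and 324 FPKM in non-DCs for Calr (-1.79) and 207 and 200.1 FPKM in mature FL-cDC2s, against 547 and 648 FPKM in non-DCs for Pdia3 (-1.76). Of the class I heavy chains, H2-K1 had 2716 and 3297 FPKM in mature FL-cDC2s, against 1287 and 1159 FPKM in non-DCs (1.09 ± 0.22), whereas H2-D1 had 5509 and 5454 FPKM in mature FL-cDC2s, against 3851 and 3766 FPKM in non-DCs and did not pass the test (0.32 ± 0.22, adjusted p = 0.249).

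Of 15 class II genes tested, 5 were higher and 6 lower (median -0.46), and the number higher fell to 3 without non-DC replicate 2 and in the fit of 13 libraries. The peptide exchange factor genes H2-DMa, with 34.7 and 46.1 FPKM in mature FL-cDC2s, against 213 and 187 FPKM in non-DCs (-2.51 ± 0.23), and H2-DMb1, with 81.5 and 101 FPKM in mature FL-cDC2s, against 458 and 409.8 FPKM in non-DCs (-2.46 ± 0.22), were lower. March1, the ligase that marks MHC class II and CD86 for degradation, had 0.193 and 0.0872 FPKM in mature FL-cDC2s, against 59.3 and 64.2 FPKM in non-DCs (-8.93 ± 0.42). Ctss, the protease that trims the invariant chain, had 1159.6 and 1644 FPKM in mature FL-cDC2s, against 5841 and 6109 FPKM in non-DCs (-2.30). Ifi30, a thiol reductase for antigens, had 174 and 215 FPKM in mature FL-cDC2s, against 23.2 and 16.3 FPKM in non-DCs (3.09). Ciita, the class II transactivator, had 37.4 and 24.3 FPKM in mature FL-cDC2s, against 16.7 and 16.9 FPKM in non-DCs and did not pass the test (0.65 ± 0.24, adjusted p = 0.0532). Both subsets were therefore rich in class II message, with sums of 28011 and 31539 FPKM in mature FL-cDC2s and 39421 and 34221 FPKM in non-DCs.

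Genes of the macrophage programme stood higher in the non-DCs. Csf1r and Cx3cr1, taken as macrophage markers, lay on the side that the sort set and are no separate result. Of 29 macrophage marker genes tested, 0 were higher in mature FL-cDC2s and 28 were lower, with a median of -9.62 (-9.45 with members at their bound), and Cd63 did not pass the test. They summed to 952 and 1242 FPKM in mature FL-cDC2s, against 68839.7 and 63058 FPKM in non-DCs, where Lyz2 gave most of the sum. Mmp12, the macrophage elastase, had 0.200 and 0.371 FPKM in mature FL-cDC2s, against 1534 and 1613 FPKM in non-DCs (-12.60 ± 0.88). C1qa, another C1q chain, had 0 FPKM in both mature FL-cDC2 libraries, against 71.3 and 56.4 FPKM in non-DCs, at least 1687-fold lower. C1qb, the remaining chain, had 0.228 and 0.0435 FPKM in mature FL-cDC2s, against 578 and 454 FPKM in non-DCs (-11.95 ± 1.51). The label of these cells names the cDC2 gate, and Zbtb46 and Flt3 stood below 2 FPKM in their libraries. The paper reports a Zbtb46 reporter signal in these cells as high as in immature cDC2s. That signal is a reporter protein, set against a subset whose Zbtb46 RNA level is not given here. It also reports that they gave rise to cDC2s in co-culture and came from dendritic cell progenitors, not from monocytes. The RNA levels here do not decide their lineage.

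PU.1 is a factor that opens myeloid promoters, and its core letters GAGGAAGT (ACTTCCTC on the other strand) were looked for in the same windows, where they stood in 3.20% of all and in 3.69% of genes with a window. They were in 5 of 24 macrophage marker genes (Adgre4, C1qc, Mmp12, Mmp8 and Sepp1) and in 3 of 21 mature dendritic cell genes. Over all genes tested they were in 3.41% of genes called higher, 5.48% of those called lower and 3.50% of those that did not pass. Stretches of C1qc (chr4:136893056-136893155, minus strand) and Mmp12 (chr9:7344263-7344362, plus strand) are shown because these genes are among the largest decreases, with the match in capitals.
C1qc: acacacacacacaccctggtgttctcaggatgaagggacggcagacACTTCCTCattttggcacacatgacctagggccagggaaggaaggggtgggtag
Mmp12: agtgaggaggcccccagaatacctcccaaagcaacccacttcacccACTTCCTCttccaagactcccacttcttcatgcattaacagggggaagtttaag
Both matches read ACTTCCTC on the gene's strand, so that the listed letters lie on the strand opposite to the gene. They are a description of the letters and not of binding.

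Complement genes were lower for 16 of 17 tested and higher for 0 (median -7.75, or -6.82 with members at their bound). The lists overlap: 22 of 30 listed macrophage markers and 6 of 20 listed complement genes are also in other lists. Counts of such lists are therefore not separate lines of evidence. C5ar1, the receptor for the attractant C5a, had 0.0439 and 0 FPKM in mature FL-cDC2s, against 223 and 236 FPKM in non-DCs (-13.52 ± 1.72). The sum over the list was 55.8 and 55.4 FPKM in mature FL-cDC2s, against 3646 and 3473 FPKM in non-DCs. Fc receptors were lower for 7 of 8 and higher for 0 (median -8.55). Fcgr3, which encodes CD16, had 0.131 and 0.233 FPKM in mature FL-cDC2s, against 1003 and 1646 FPKM in non-DCs (-13.00 ± 1.07). Fcgr4 had 0 FPKM in both mature FL-cDC2 libraries, against 14.1 and 12.5 FPKM in non-DCs, at least 406-fold lower. Fcgr2b, the inhibitory receptor, had 0.622 and 0.264 FPKM in mature FL-cDC2s, against 219 and 252 FPKM in non-DCs (-9.16 ± 0.44). Fcgr1, the gene of the macrophage marker CD64, had 0.0125 and 0.0713 FPKM in mature FL-cDC2s, against 9.86 and 8.51 FPKM in non-DCs (-7.94).

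Uptake and scavenger receptors followed, with 3 of 27 tested higher and 22 lower (median -3.88). Msr1, the class A scavenger receptor, had 0.117 and 0 FPKM in mature FL-cDC2s, against 356 and 420.4 FPKM in non-DCs (-12.72 ± 1.43). Marco, a relative of it, had 0 FPKM in both mature FL-cDC2 libraries, against 26.4 and 21.5 FPKM in non-DCs, at least 1159.9-fold lower. Mertk, which engulfs apoptotic cells, had 0.00725 and 0 FPKM in mature FL-cDC2s, against 6.53 and 8.79 FPKM in non-DCs (-11.11). Gas6, the bridging ligand of MERTK, had 0 FPKM in both mature FL-cDC2 libraries, against 23.7 and 23.6 FPKM in non-DCs, at least 1496-fold lower. Mrc1, the mannose receptor, had 0.0299 and 0 FPKM in mature FL-cDC2s, against 10.3 and 13.4 FPKM in non-DCs (-9.81). The receptors that went the other way were Ly75 (DEC-205, a dendritic cell endocytic receptor), with 50.96 and 29.4 FPKM in mature FL-cDC2s, against 9.998 and 10.9 FPKM in non-DCs (1.73), Havcr1, with 2.48 and 2.00 FPKM in mature FL-cDC2s, against 0.0635 and 0.0424 FPKM in non-DCs (4.96), and Tyro3. Tyro3 was low in mature FL-cDC2s, with 0.293 and 0.195 FPKM in mature FL-cDC2s, against 0 FPKM in both non-DC libraries, at least 16.1-fold higher (adjusted p = 0.0613 without mature FL-cDC2 replicate 1, 0.0543 without non-DC replicate 1, 0.0523 without non-DC replicate 2).

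The largest decreases outside these families also included sensors of bacteria and lipids. Pilra, an inhibitory paired receptor, had 0 FPKM in both mature FL-cDC2 libraries, against 108 and 97.3 FPKM in non-DCs, at least 6496-fold lower (adjusted p = 2.63e-05). Gpr84, a receptor for fatty acids of medium length, had 0 FPKM in both mature FL-cDC2 libraries, against 42.1 and 30.3 FPKM in non-DCs, at least 1371-fold lower. Fpr1, the formyl peptide receptor, had 0.0244 and 0 FPKM in mature FL-cDC2s, against 144 and 144 FPKM in non-DCs (-13.59 ± 1.10). Pmp22, a membrane protein known from myelin, had 0 FPKM in both mature FL-cDC2 libraries, against 38.5 and 51.02 FPKM in non-DCs, at least 2030.4-fold lower, and F7, coagulation factor VII, had 0 FPKM in both mature FL-cDC2 libraries, against 17.9 and 19.3 FPKM in non-DCs, at least 843-fold lower. The activating partners Pilrb1 and Pilrb2, whose reads may be shared, the predicted gene LOC100038947 and the membrane protein gene Lhfpl2 were also at 0 reads in both mature FL-cDC2 libraries, with bounds from at least 776-fold to at least 2482-fold.

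Of 17 Toll-like receptor genes and partners tested, 2 were higher and 12 lower in mature FL-cDC2s (median -2.64). Tlr4, the receptor for lipopolysaccharide, had 0.0368 and 0.0234 FPKM in mature FL-cDC2s, against 25.4 and 26.7 FPKM in non-DCs (-9.91 ± 0.29). Cd14, its coreceptor, had 3.24 and 5.21 FPKM in mature FL-cDC2s, against 1615 and 1230.0 FPKM in non-DCs (-8.60 ± 0.55). Tlr7, a sensor of RNA like TLR8, had 0.298 and 0.0687 FPKM in mature FL-cDC2s, against 32.2 and 37.8 FPKM in non-DCs (-7.74 ± 0.60). Tlr2, for lipoproteins, had 8.74 and 7.05 FPKM in mature FL-cDC2s, against 353 and 377 FPKM in non-DCs (-5.74). The pair that was higher, Tlr11 with 14.1 and 9.42 FPKM in mature FL-cDC2s, against 1.10 and 0.711 FPKM in non-DCs (3.48) and Tlr12 with 4.83 and 2.51 FPKM in mature FL-cDC2s, against 0.416 and 0.248 FPKM in non-DCs (3.23), encodes mouse sensors of profilin. Tlr9, for CpG DNA, had 0.149 and 0.263 FPKM in mature FL-cDC2s, against 0.138 and 0.0121 FPKM in non-DCs and did not pass the test (1.22 ± 0.92, adjusted p = 0.298).

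Downstream of the receptors, 5 of 15 adaptor genes were higher and 6 lower (median -0.20). Pik3ap1, the adaptor BCAP, had 1.37 and 0.592 FPKM in mature FL-cDC2s, against 78.9 and 84.4 FPKM in non-DCs (-6.59 ± 0.44). Irak3, an inhibitor of the pathway, had 9.23 and 7.43 FPKM in mature FL-cDC2s, against 92.9 and 100.1 FPKM in non-DCs (-3.74). Myd88 had 36.3 and 36.2 FPKM in mature FL-cDC2s, against 85.1 and 84.9 FPKM in non-DCs (-1.44). Traf6, a ubiquitin ligase shared with the NF-kB pathway, had 24.2 and 20.6 FPKM in mature FL-cDC2s, against 6.35 and 6.14 FPKM in non-DCs (1.65). The number of higher adaptors fell to 2 without non-DC replicate 1 and to 1 without non-DC replicate 2, and the number of lower ones ran from 5 to 6 over the alternatives. Of 15 inflammasome genes, 12 were lower and 1 higher (median -2.10). P2rx7, the receptor for extracellular ATP, had 0.0720 and 0.0249 FPKM in mature FL-cDC2s, against 21.98 and 25.4 FPKM in non-DCs (-8.93 ± 0.44), Mefv (pyrin) had 0.290 and 0.441 FPKM in mature FL-cDC2s, against 24.2 and 23.9 FPKM in non-DCs (-6.20) and Nlrp3 had 0.00799 and 0.0836 FPKM in mature FL-cDC2s, against 2.31 and 2.98 FPKM in non-DCs (-6.01). Interferon-stimulated genes were split, with 7 of 25 higher and 12 lower (median -0.67): Mx1, an antiviral GTPase, had 105 and 93.9 FPKM in mature FL-cDC2s, against 1.08 and 1.58 FPKM in non-DCs (6.02 ± 0.38), whereas Ifit2 had 6.76 and 3.27 FPKM in mature FL-cDC2s, against 37.004 and 49.3 FPKM in non-DCs (-3.32 ± 0.40).

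Lysosomal genes stood lower in mature FL-cDC2s with no member higher: of 42 hydrolases and membrane proteins tested, 36 were lower (median -2.02). Their summed level was 4927 and 4926 FPKM in mature FL-cDC2s, against 57779.6 and 53968 FPKM in non-DCs, and 6261 and 7002 FPKM in immature FL-cDC2s, and Lyz2 gave most of the sum in non-DCs. Lyz1, whose reads may be shared with Lyz2, had 0.177 and 0 FPKM in mature FL-cDC2s, against 643 and 595 FPKM in non-DCs (-12.97 ± 1.09). Acp5, the tartrate-resistant acid phosphatase, had 0.860 and 1.24 FPKM in mature FL-cDC2s, against 88.1 and 83.1 FPKM in non-DCs (-6.51 ± 0.27). Lipa, the lysosomal acid lipase, had 12.3 and 9.15 FPKM in mature FL-cDC2s, against 389 and 423 FPKM in non-DCs (-5.46 ± 0.27). Psap, the precursor of the saposins, had 693 and 295 FPKM in mature FL-cDC2s, against 7333 and 7923 FPKM in non-DCs (-4.16).

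Cathepsins were lower for 13 of 16 tested and higher for 2 (median -2.93). Ctsd, an aspartic protease, had 55.9 and 58.6 FPKM in mature FL-cDC2s, against 6091 and 6866 FPKM in non-DCs (-7.03 ± 0.36). Ctsb had 146 and 150.1 FPKM in mature FL-cDC2s, against 3278 and 3399 FPKM in non-DCs (-4.70 ± 0.29), and Ctsl had 1.52 and 2.70 FPKM in mature FL-cDC2s, against 58.9 and 61.5 FPKM in non-DCs (-5.04). Ctsk, known from osteoclasts, had 0.479 and 0.576 FPKM in mature FL-cDC2s, against 42.8 and 47.2 FPKM in non-DCs (-6.61). The 2 exceptions were the inhibitor Cst3 (cystatin C), with 4628 and 7838 FPKM in mature FL-cDC2s, against 261 and 153 FPKM in non-DCs (4.71 ± 0.40), and the aminopeptidase Ctsh, with 1075 and 1136 FPKM in mature FL-cDC2s, against 445 and 428 FPKM in non-DCs (1.13). Cst3 thus differed in the direction opposite to most of the proteases.

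The vacuolar proton pump, which acidifies the lysosome, was lower for 10 of 17 subunits tested and higher for 1 (median -0.70). Atp6v0d2, a subunit of osteoclasts and macrophages, had 0.196 and 0.171 FPKM in mature FL-cDC2s, against 71.2 and 102 FPKM in non-DCs (-9.07 ± 0.91). Atp6v1a, the catalytic subunit, had 28.7 and 29.8 FPKM in mature FL-cDC2s, against 178 and 213 FPKM in non-DCs (-2.95 ± 0.21). Atp6ap2, an accessory subunit, had 78.1 and 76.8 FPKM in mature FL-cDC2s, against 264 and 306 FPKM in non-DCs (-2.09). Atp6v0c, the proteolipid ring, was the exception, with 278 and 414 FPKM in mature FL-cDC2s, against 126 and 121 FPKM in non-DCs (1.28, adjusted p = 0.574 in the fit of 13 libraries), and pseudogene copies of it may share its reads.

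Lysosomal genes are known to share the CLEAR element, read by the factors TFEB, TFE3 and MITF, whose palindromic core TCACGTGA stood in 0.974% of all promoter windows and in 1.12% of genes with a window. It was in 4 of 34 lysosomal genes (Cln3, Gla, Mcoln1 and Tmem55b), in 2 of 11 cathepsin genes (Ctsa and Ctsd), in 3 of 11 proton pump genes (Atp6v0d1, Atp6v0e and Atp6v1a) and in 0 of 21 mature dendritic cell genes. Of these holders of the core, Atp6v0d1 (-0.33), Atp6v0e (0.35) and Tmem55b did not pass the test between the subsets. Stretches are shown for 1 called gene of each list, with the core in capitals, at chr7:142387873-142387972, chrX:134601156-134601255 and chr16:44139338-44139437, all on the minus strand.
Ctsd: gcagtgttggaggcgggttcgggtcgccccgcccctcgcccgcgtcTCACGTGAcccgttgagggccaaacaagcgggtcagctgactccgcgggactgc
Gla: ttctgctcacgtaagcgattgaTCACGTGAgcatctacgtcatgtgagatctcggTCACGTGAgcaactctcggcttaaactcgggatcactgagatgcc
Atp6v1a: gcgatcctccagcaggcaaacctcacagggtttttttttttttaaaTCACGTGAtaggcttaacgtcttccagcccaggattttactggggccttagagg
Gla, the alpha-galactosidase gene, held the core at 2 places and had 1.81 and 1.71 FPKM in mature FL-cDC2s, against 45.8 and 44.9 FPKM in non-DCs (-4.90 ± 0.32). Over all genes tested, the core was in 2.01% of genes called higher, 2.32% of those called lower and 2.13% of those that did not pass. As for the other motifs, the letters describe the window and say nothing of binding.

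**Figure D3:**
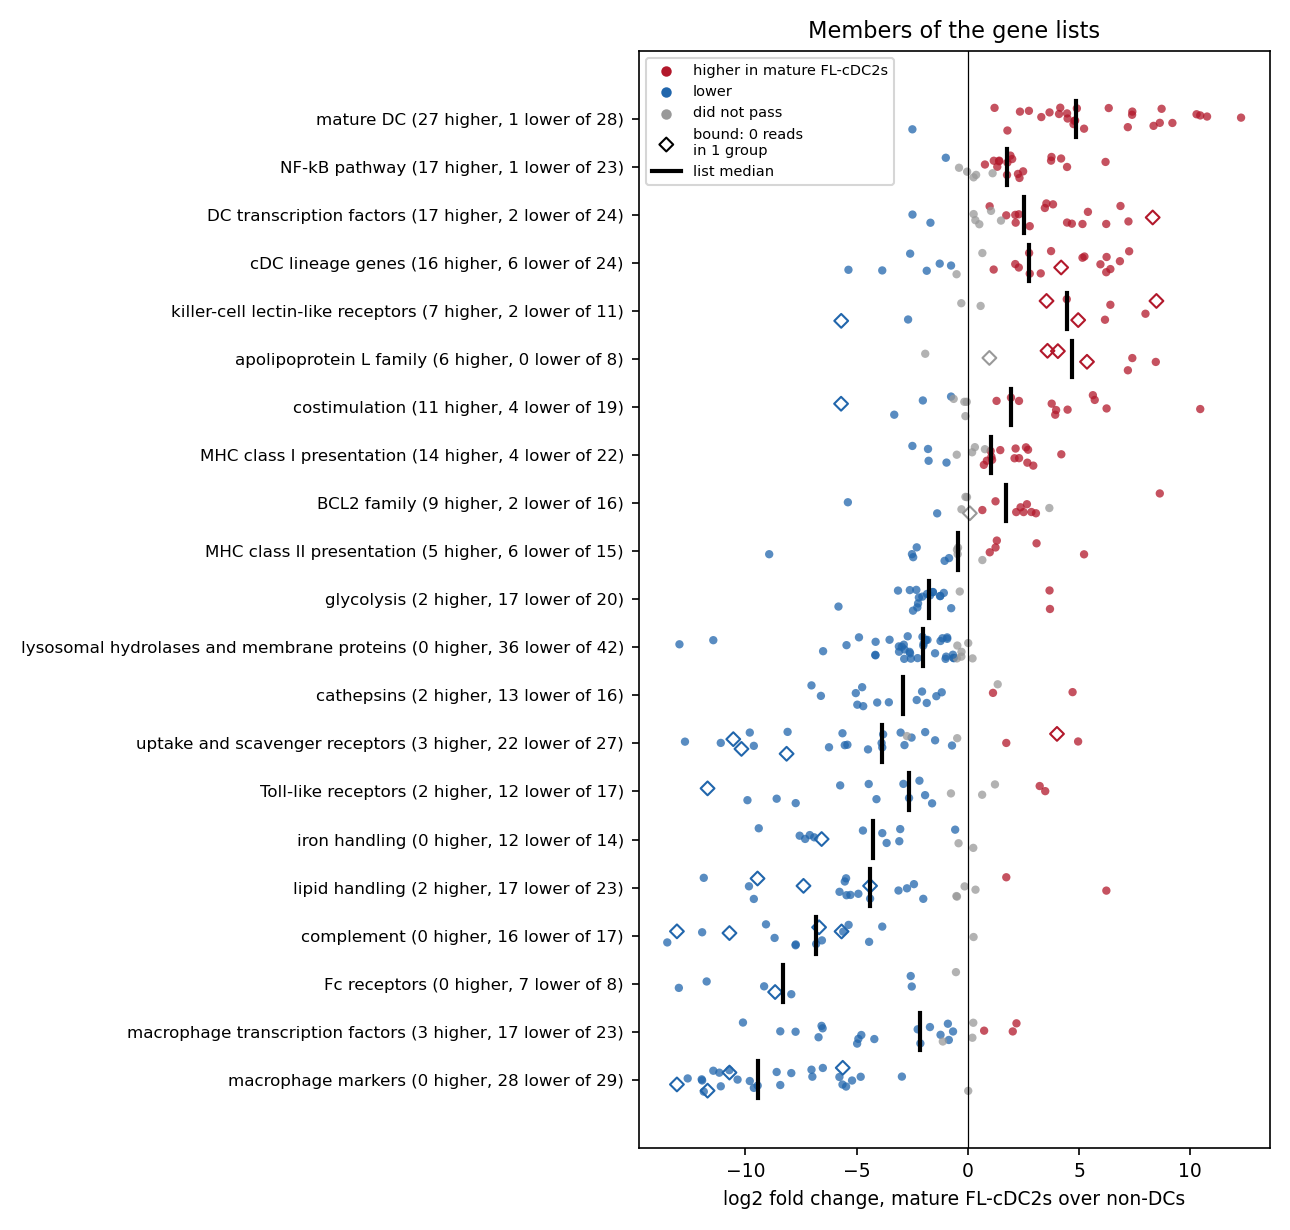
Differences of mature FL-cDC2s over non-DCs (horizontal axis, log2 fold change) for the members of 21 gene lists, with 1 point per gene. Red members were called higher, blue lower and grey did not pass; diamonds stand for genes with 0 reads in a subset, drawn at their bound, and the black bar is the median of the list with such genes at their bound, which lies to the right for mature DC genes and to the left for macrophage markers, complement and Fc receptors.

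Metabolic genes added to the contrast. Of 23 lipid handling genes tested, 2 were higher and 17 lower in mature FL-cDC2s (median -4.92, or -4.40 with members at their bound). Apoe had 1.18 and 0.881 FPKM in mature FL-cDC2s, against 4088 and 2741 FPKM in non-DCs (-11.87 ± 1.40). Lpl, the lipoprotein lipase, had 0.393 and 0.463 FPKM in mature FL-cDC2s, against 327 and 357 FPKM in non-DCs (-9.84 ± 0.50). Trem2, a receptor for lipids, had 0.146 and 0.134 FPKM in mature FL-cDC2s, against 115 and 90.9 FPKM in non-DCs (-9.62), and Mgll, the monoacylglycerol lipase, had 0 FPKM in both mature FL-cDC2 libraries, against 7.07 and 7.69 FPKM in non-DCs, at least 703-fold lower. The exceptions were Ch25h, which makes 25-hydroxycholesterol, with 12.7 and 9.35 FPKM in mature FL-cDC2s, against 0.213 and 0.0312 FPKM in non-DCs (6.23), and the sterol exporter Abcg1, with 19.9 and 22.2 FPKM in mature FL-cDC2s, against 5.67 and 5.33 FPKM in non-DCs (1.73).

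Cholesterol synthesis was mixed by comparison, with 6 of 21 genes higher, 3 lower and 12 that did not pass (median 0.27), and the number higher ran from 3, without non-DC replicate 2, to 10 over the alternatives. Without mature FL-cDC2 replicate 1, 5 were lower. Idi1, an isomerase of the pathway, had 197 and 156 FPKM in mature FL-cDC2s, against 25.7 and 28.8 FPKM in non-DCs (2.48 ± 0.22). Glycolysis was lower for 17 of 20 genes and higher for 2 (median -1.77). Hk3, a hexokinase of myeloid cells, had 1.31 and 1.93 FPKM in mature FL-cDC2s, against 76.6 and 79.3 FPKM in non-DCs (-5.82 ± 0.45), Slc2a1, the glucose carrier GLUT1, had 19.6 and 20.4 FPKM in mature FL-cDC2s, against 173 and 133 FPKM in non-DCs (-3.14 ± 0.26), and Ldha had 389 and 468 FPKM in mature FL-cDC2s, against 2055 and 1563 FPKM in non-DCs (-2.27). Pfkfb3, which makes the activator of phosphofructokinase, was opposite, with 463 and 239 FPKM in mature FL-cDC2s, against 26.2 and 20.8 FPKM in non-DCs (3.69 ± 0.36), as was the enolase Eno2, with 20.6 and 14.9 FPKM in mature FL-cDC2s, against 1.52 and 0.853 FPKM in non-DCs (3.67).

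Iron handling genes were lower for 12 of 14 tested and higher for 0 (median -4.28). Slc40a1, the iron exporter ferroportin, had 0.0621 and 0.0182 FPKM in mature FL-cDC2s, against 23.2 and 29.5 FPKM in non-DCs (-9.40 ± 0.53). Slc11a1, the divalent metal transporter of phagosomes, had 1.47 and 2.21 FPKM in mature FL-cDC2s, against 292 and 312 FPKM in non-DCs (-7.56 ± 0.62). Tfrc, the transferrin receptor, had 0.524 and 0.254 FPKM in mature FL-cDC2s, against 46.8 and 60.7 FPKM in non-DCs (-7.32), and Hmox1, which degrades haem, had 1.48 and 1.38 FPKM in mature FL-cDC2s, against 171 and 127 FPKM in non-DCs (-6.91). Import, export and haem breakdown were thus all low in mature FL-cDC2s. Genes of the NADPH oxidase and redox balance were lower for 12 of 16 and higher for 2 (median -1.79). Nos2, the inducible nitric oxide synthase, had 0 FPKM in both mature FL-cDC2 libraries, against 10.4 and 7.30 FPKM in non-DCs, at least 896-fold lower. Cybb, the oxidase core, had 62.04 and 45.01 FPKM in mature FL-cDC2s, against 1368 and 1519 FPKM in non-DCs (-4.96 ± 0.30), whereas its cytosolic partner Ncf1 had 381 and 377 FPKM in mature FL-cDC2s, against 149.8 and 155 FPKM in non-DCs (1.10).

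Enzymes of vitamin A and kynurenine metabolism were higher for 7 of 14 and lower for 4 (median 0.62), and the number higher fell to 4 with the replicate block and without non-DC replicate 1, non-DC replicate 2 or mature FL-cDC2 replicate 2. Aldh1a2, which makes retinoic acid, had 22.6 and 22.7 FPKM in mature FL-cDC2s, against 0.486 and 0.540 FPKM in non-DCs (5.25 ± 0.37). Il4i1, a secreted amino acid oxidase, had 1232 and 1089 FPKM in mature FL-cDC2s, against 39.4 and 27.8 FPKM in non-DCs (4.90 ± 0.26). Haao, an enzyme of the kynurenine branch, had 35.4 and 40.4 FPKM in mature FL-cDC2s, against 1.10 and 0.618 FPKM in non-DCs (5.24). Kmo, an enzyme of the same branch and a gene also counted in the cDC lineage list, went the other way with 1.48 and 0.717 FPKM in mature FL-cDC2s, against 3.06 and 3.78 FPKM in non-DCs (-1.85, adjusted p = 0.0788 in the fit of 13 libraries).

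**Figure D4:**
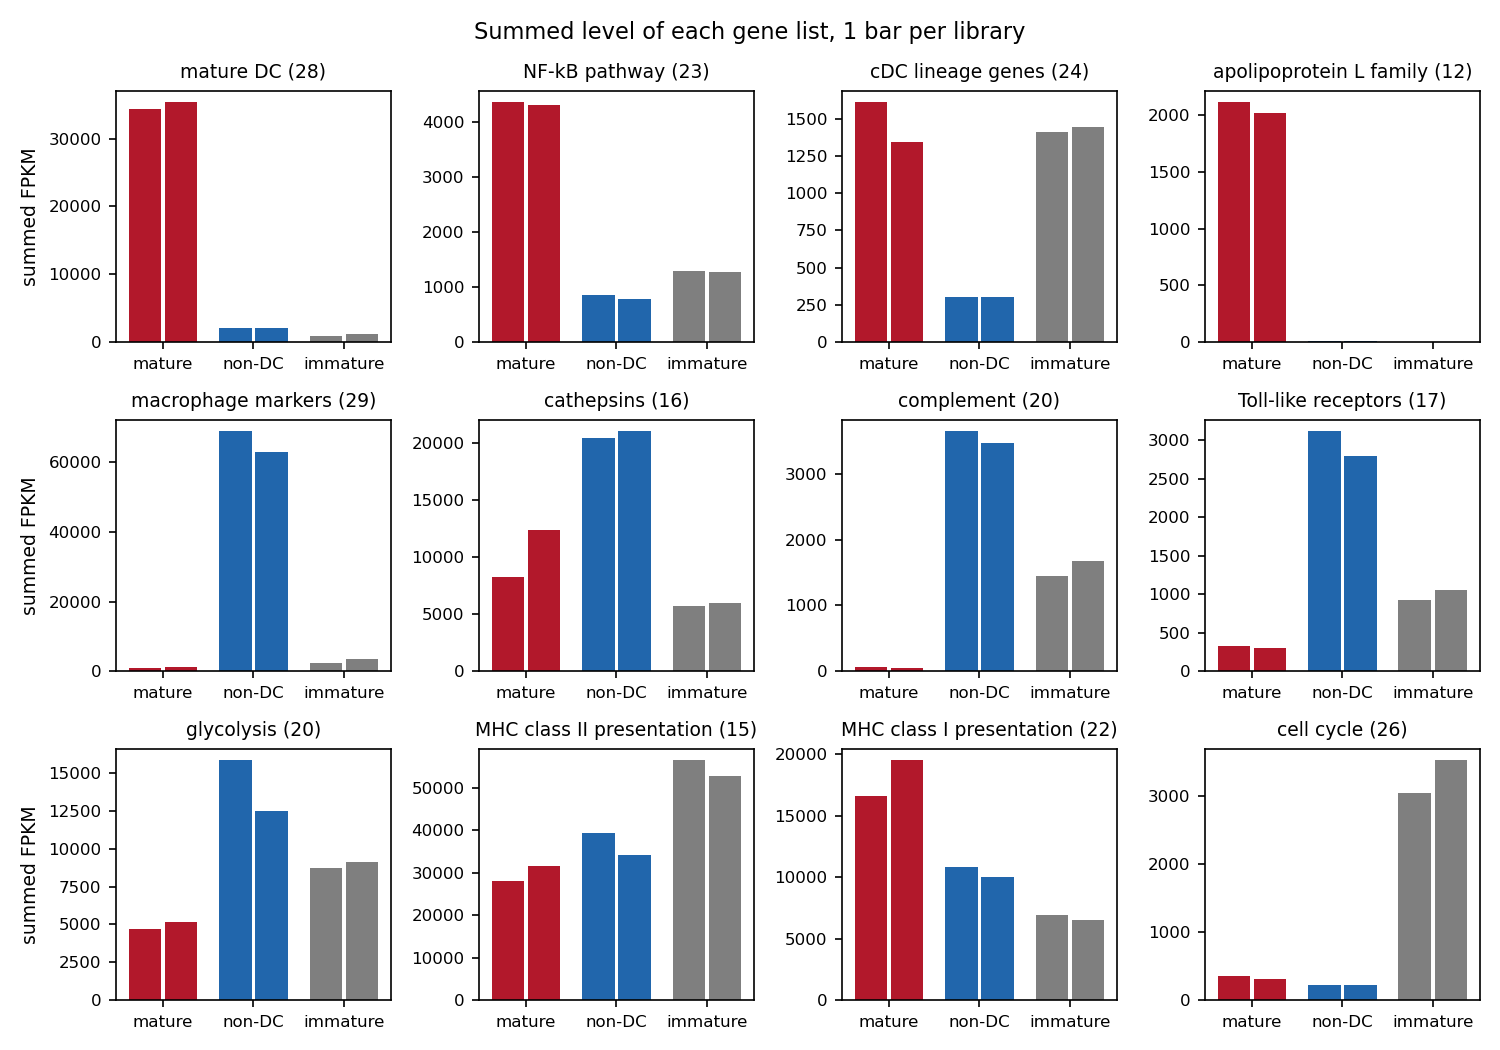
Summed FPKM of 12 gene lists (vertical axis of each panel, from 0) in mature FL-cDC2s, non-DCs and immature FL-cDC2s, with 1 bar per library. The mature DC genes summed to 34298 and 35323 FPKM in mature FL-cDC2s, and the macrophage markers to 68839.7 and 63058 FPKM in non-DCs.

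Lineage markers were checked next. Of 24 cDC lineage genes tested, 16 were higher and 6 lower in mature FL-cDC2s (median 2.77). Flt3, the receptor of the cytokine in the culture, had 108 and 74.3 FPKM in mature FL-cDC2s, against 0.635 and 0.381 FPKM in non-DCs (7.25 ± 0.41). Kit, the stem cell factor receptor, had 96.1 and 47.7 FPKM in mature FL-cDC2s, against 0.664 and 0.409 FPKM in non-DCs (6.84 ± 0.45). Cst7, an inhibitor of cysteine proteases, went the other way with 0.721 and 0.562 FPKM in mature FL-cDC2s, against 27.9 and 18.6 FPKM in non-DCs (-5.37). Among growth factor receptors, 6 of 21 were higher and 10 lower (median 0.02). Il2ra, the IL-2 receptor alpha chain, had 33.8 and 22.6 FPKM in mature FL-cDC2s, against 0.0203 and 0.0132 FPKM in non-DCs (10.25 ± 0.40), and Csf3r, the G-CSF receptor, had 0.285 and 0.0156 FPKM in mature FL-cDC2s, against 78.8 and 79.7 FPKM in non-DCs (-9.23 ± 0.98). The receptors for FLT3L and for CSF1 thus differed in opposite directions. The side of Csf1r, which is counted among the 10 lower receptors, was set by the sort on CD115.

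Of 18 cDC2 markers tested, 5 were higher and 12 lower in mature FL-cDC2s (median -4.51). Clec10a, a lectin of cDC2s and macrophages, had 0 and 0.0704 FPKM in mature FL-cDC2s, against 11.4 and 9.03 FPKM in non-DCs (-8.28 ± 0.64). Mgl2, a related lectin, had 0 FPKM in both mature FL-cDC2 libraries, against 3.10 and 3.51 FPKM in non-DCs, at least 125-fold lower. Itgam, which encodes CD11b, had 2.46 and 0.916 FPKM in mature FL-cDC2s, against 125 and 151 FPKM in non-DCs (-6.56 ± 0.50). Ltb, lymphotoxin beta, had 24.4 and 19.98 FPKM in mature FL-cDC2s, against 0.834 and 0.327 FPKM in non-DCs (4.99), and Esam, an adhesion molecule of splenic cDC2s, had 2.49 and 2.29 FPKM in mature FL-cDC2s, against 0.0388 and 0 FPKM in non-DCs (6.59), so that these cDC2 markers were higher. The list summed to 158 and 119.8 FPKM in mature FL-cDC2s and 1152 and 1188 FPKM in non-DCs, and to 1674 and 1316 FPKM in immature FL-cDC2s.

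The cDC1 markers, a check on the neighbouring gate, were higher for 5 of 15 and lower for 7 (median -2.74). They summed to 68.4 and 65.3 FPKM in mature FL-cDC2s, against 243 and 295 FPKM in non-DCs. Xcr1 had 0.214 and 0.236 FPKM in mature FL-cDC2s, against 0.0565 and 0.260 FPKM in non-DCs. Clec9a had 0.0441 and 0.0187 FPKM in mature FL-cDC2s, against 0.167 and 0.205 FPKM in non-DCs. These 2 genes do not stand for the whole list, whose 5 higher members are not named here. Monocyte genes were lower for 9 of 14 and higher for 1 (median -3.80). F13a1, a coagulation factor subunit of monocytes, had 0.0582 and 0 FPKM in mature FL-cDC2s, against 285 and 259 FPKM in non-DCs (-13.40 ± 1.24), Hp, haptoglobin, had 0.216 and 0.148 FPKM in mature FL-cDC2s, against 1099 and 756 FPKM in non-DCs (-12.50 ± 0.56), and Ly6c2 had 0 and 0.0768 FPKM in mature FL-cDC2s, against 42.5 and 17.3 FPKM in non-DCs (-9.38). S100a4, a calcium-binding protein, was the exception with 74.6 and 108 FPKM in mature FL-cDC2s, against 17.7 and 9.21 FPKM in non-DCs (2.55). The Ms4a family of membrane proteins was lower for 7 of 8, with Ms4a4a at 4.76 and 3.58 FPKM in mature FL-cDC2s, against 421 and 506 FPKM in non-DCs (-7.01 ± 0.41), and its exception was the B cell gene Ms4a1, at 6.22 and 2.41 FPKM in mature FL-cDC2s, against 0 and 0.0205 FPKM in non-DCs (8.49).

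Structural genes showed no single direction. Of 28 actin regulators tested, 11 were higher, 6 lower and 11 did not pass (median 0.19). Myo1g, a class I myosin of blood cells, had 916 and 722 FPKM in mature FL-cDC2s, against 48.04 and 47.3 FPKM in non-DCs (3.89 ± 0.24), and Marcksl1 had 1526 and 1566 FPKM in mature FL-cDC2s, against 143 and 128 FPKM in non-DCs (3.30). Evl, an actin elongation factor, had 1.61 and 1.58 FPKM in mature FL-cDC2s, against 26.3 and 28.6 FPKM in non-DCs (-4.37 ± 0.21). Integrins were lower for 11 of 17 and higher for 4 (median -1.47), or for 2 in the fit of 13 libraries. Itgb2, the beta chain shared by CD11a, CD11b and CD11c, had 17.4 and 15.97 FPKM in mature FL-cDC2s, against 710.3 and 694 FPKM in non-DCs (-5.60 ± 0.26), and Itgal, the CD11a chain, had 0.0926 and 0.121 FPKM in mature FL-cDC2s, against 20.97 and 22.6 FPKM in non-DCs (-7.87 ± 0.28). Itgb8, which activates latent TGF-beta, had 1.57 and 1.89 FPKM in mature FL-cDC2s, against 0.206 and 0.117 FPKM in non-DCs (3.17). The beta 2 integrins, Itgax among them, were therefore lower together in mature FL-cDC2s.

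Tetraspanins were lower for 9 of 15 and higher for 4 (median -0.97). Cd53 had 10.8 and 8.27 FPKM in mature FL-cDC2s, against 364 and 368 FPKM in non-DCs (-5.47 ± 0.25), and Tspan3 had 1925 and 1978 FPKM in mature FL-cDC2s, against 267 and 236 FPKM in non-DCs (2.75 ± 0.23). Matrix proteases and their inhibitors gave large changes in both directions, with 5 of 14 higher and 9 lower (median -7.47, or -5.66 with members at their bound). Mmp25, a protease anchored in the membrane, had 196 and 216 FPKM in mature FL-cDC2s, against 0.122 and 0.0634 FPKM in non-DCs (10.87 ± 0.79). Mmp9, a secreted gelatinase, had 0.0204 and 0.0145 FPKM in mature FL-cDC2s, against 229.7 and 267 FPKM in non-DCs (-13.96 ± 0.77), and Mmp8 had 0.0836 and 0.307 FPKM in mature FL-cDC2s, against 344 and 466 FPKM in non-DCs (-11.18 ± 1.32). Timp2, an inhibitor, had 0.145 and 0.0467 FPKM in mature FL-cDC2s, against 69.95 and 82.9 FPKM in non-DCs (-9.80). Mature FL-cDC2s thus differed in which metalloproteases they expressed as well as in how much.

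Genes of the BCL2 family, which set the threshold of apoptosis, were higher for 9 of 16 and lower for 2 (median 2.27, or 1.71 with members at their bound). Bcl2l14 had 92.2 and 127 FPKM in mature FL-cDC2s, against 0.287 and 0.177 FPKM in non-DCs (8.63 ± 0.35). Pmaip1, the proapoptotic protein NOXA, had 413 and 362 FPKM in mature FL-cDC2s, against 46.3 and 46.1 FPKM in non-DCs (2.86 ± 0.23). Bcl2a1d, a survival gene with near-identical copies that may share reads, had 209 and 285 FPKM in mature FL-cDC2s, against 31.01 and 20.3 FPKM in non-DCs (3.06). Bcl2 itself had 0.127 and 0.0545 FPKM in mature FL-cDC2s, against 2.55 and 2.86 FPKM in non-DCs (-5.39 ± 0.54). Both promoting and opposing members of the family were therefore higher.

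Cell cycle genes were split between these subsets: 9 of 26 were higher, 5 lower and 12 did not pass (median 0.09), and over the alternatives the number higher ran from 3 to 10. The number higher fell to 5 without non-DC replicate 1 and to 3 without non-DC replicate 2, and the number lower to 2 without any 1 of the 4 libraries. Mki67, a marker of cycling cells, had 0.546 and 0.569 FPKM in mature FL-cDC2s, against 0.655 and 0.525 FPKM in non-DCs, which overlapped and did not pass the test (-0.29 ± 0.21, adjusted p = 0.268). The list summed to 352 and 315 FPKM in mature FL-cDC2s, against 227 and 221 FPKM in non-DCs, whereas immature FL-cDC2s reached 3041 and 3518 FPKM. Of 18 immediate early and stress genes, 2 were higher and 5 lower (median 0.01): Zfp36, which degrades cytokine messages, had 1224 and 1206 FPKM in mature FL-cDC2s, against 210.1 and 291 FPKM in non-DCs (2.07 ± 0.23), and Egr1 had 1.58 and 0.818 FPKM in mature FL-cDC2s, against 79.2 and 119 FPKM in non-DCs (-6.58 ± 0.51).

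Markers of cells outside the gate were summed beside these results, and their part in the results was not tested. Neutrophil genes summed to 0.413 and 0.293 FPKM in mature FL-cDC2s, against 80.8 and 80.9 FPKM in non-DCs, almost all of it Csf3r, with Ly6g, Retnlg and S100a9 at 0 reads in these 4 libraries. T cell genes summed to 2.66 and 1.84 FPKM in mature FL-cDC2s, against 33.9 and 32.7 FPKM in non-DCs, where they came from Cd4 and Cd28, and Cd3e was at 0 reads. B cell genes summed to 23.7 and 26.4 FPKM in mature FL-cDC2s, against 39.8 and 25.3 FPKM in non-DCs, with Pax5 at 0 reads. The genes named at 0 reads were thus not detected at this depth, but other members of the 3 lists were. Of 5 neutrophil genes tested, 0 were higher and 3 lower. Of 5 T cell genes tested, 2 were higher and 2 lower, and of 4 B cell genes, 1 was higher (Ms4a1, 8.49) and 1 lower.

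Plasmacytoid dendritic cell genes summed to 98.4 and 117 FPKM in mature FL-cDC2s, against 180.2 and 134 FPKM in non-DCs, and 4 of 12 were higher and 3 lower. The number higher fell to 2 without non-DC replicate 2 and ran from 1 to 5 over the alternatives. Platelet genes summed to 0.217 and 0.704 FPKM in mature FL-cDC2s, against 16.2 and 19.4 FPKM in non-DCs, mostly Pf4. Mast cell genes summed to 97.3 and 48.7 FPKM in mature FL-cDC2s, against 0.851 and 0.427 FPKM in non-DCs, mostly through Kit. Erythroid genes summed to 75.2 and 66.1 FPKM in mature FL-cDC2s, against 1.78 and 1.37 FPKM in non-DCs, mostly through Car2. Eosinophil and stroma genes stayed below 4 FPKM in sum in each of the 4 libraries.

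Immature FL-cDC2s gave a point of reference for both sides of the comparison. Of 2825 genes called higher by 2-fold or more, 1577 (55.8%) had an immature FL-cDC2 mean nearer to mature FL-cDC2s and 1248 nearer to non-DCs. Of 2871 genes called lower by 2-fold or more, 1185 (41.3%) were nearer to mature FL-cDC2s and 1686 nearer to non-DCs. The immature mean lay outside the range of the other 2 means for 1208 of the higher and 1363 of the lower genes, so that for these genes it was no intermediate. Because the mature FL-cDC2 libraries enter both distances, these counts are a description.

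The corresponding contrast in GM-BM culture, GM-DCs over GM-Macs, shares no library with this one, and both were fitted together over 13 libraries. In that fit 5525 genes were called in FL-BM culture and 3322 in GM-BM culture, of which 2461 were called in both (44.5% of the FL-BM and 74.1% of the GM-BM calls) and 2391 of those with the same sign. Ccr7 had 5723 and 4706 FPKM in GM-DCs, against 340.3 and 75.4 FPKM in GM-Macs. C1qc had 44.5 and 188 FPKM in GM-DCs, against 919.9 and 2323 FPKM in GM-Macs, where mature FL-cDC2s had 0 reads. A difference between the contrasts passed the test for 1271 of 14936 genes (8.51%), a count that fell to 469 without non-DC replicate 2, 553 without non-DC replicate 1, 556 without mature FL-cDC2 replicate 2, 582 without GM-DC replicate 2 and 702 without mature FL-cDC2 replicate 1.

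Of those genes, 70 were called in opposite directions in the cultures, 44 of them with at least 10 FPKM in a subset. Cd81, a tetraspanin, was higher in mature FL-cDC2s, with 118 and 145 FPKM in mature FL-cDC2s, against 37.01 and 30.8 FPKM in non-DCs, but had 61.98 and 62.8 FPKM in GM-DCs, against 238 and 264 FPKM in GM-Macs (difference between the contrasts 3.97 ± 0.40, adjusted p = 0.000590). Palm, paralemmin, had 18.8 and 14.4 FPKM in mature FL-cDC2s, against 1.29 and 1.10 FPKM in non-DCs, and 5.44 and 4.13 FPKM in GM-DCs, against 14.3 and 10.7 FPKM in GM-Macs (5.18 ± 0.43). Htra1, a secreted serine protease, had 9.78 and 17.2 FPKM in mature FL-cDC2s, against 43.5 and 42.8 FPKM in non-DCs, and 172 and 114 FPKM in GM-DCs, against 5.93 and 3.76 FPKM in GM-Macs (-6.56 ± 0.77), and its own FL-BM call was lost when a library was left out (adjusted p = 0.0841 without mature FL-cDC2 replicate 1). Galm, an enzyme of galactose metabolism, had 1.501 and 1.88 FPKM in mature FL-cDC2s, against 16.97 and 19.8 FPKM in non-DCs, and 183 and 163 FPKM in GM-DCs, against 37.3 and 27.9 FPKM in GM-Macs (-5.85 ± 0.42). The GM-BM libraries came from separate deposited tables, with 1 GM-DC and 1 GM-Mac library sharing a table, so culture and table cannot be told apart.

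**Figure D5:**
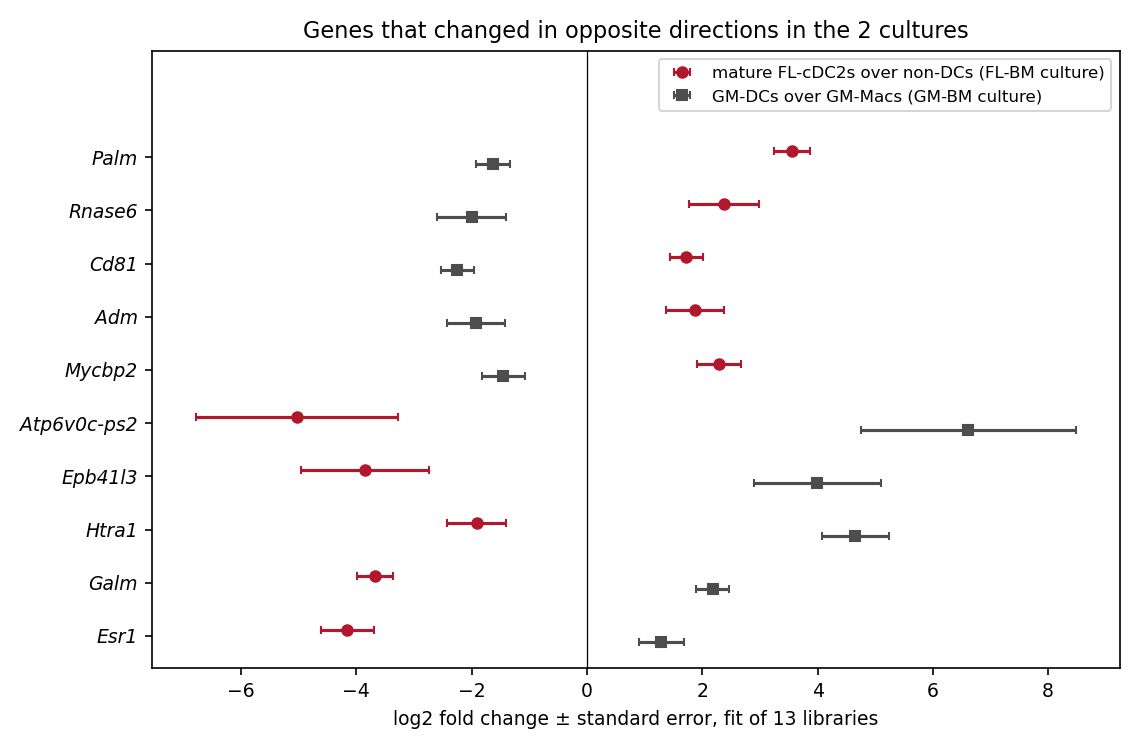
Log2 fold changes with standard errors (horizontal axis) of mature FL-cDC2s over non-DCs (red circles) and of GM-DCs over GM-Macs (grey squares) for 10 genes, from the fit of 13 libraries with 2 libraries per subset. They are the 5 largest differences per direction among genes called in opposite directions in the cultures with at least 10 FPKM in a subset. Palm, Rnase6, Cd81, Adm and Mycbp2 were higher in mature FL-cDC2s and lower in GM-DCs, and Atp6v0c-ps2, Epb41l3, Htra1, Galm and Esr1 the reverse.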

How the data were processed

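RNA of cells sorted from FL-BM and GM-BM cultures was sequenced after library preparation with the SMART-Seq v4 Ultra Low Input kit. The deposited tables hold read counts per gene and FPKM values that the authors made on mm10; StringTie 1.3.4d, HTSeq, STAR 2.6.0c, Trimmomatic and bcl2fastq 2.20.0 are listed by the submitters, whereas the paper's methods name HISAT in place of STAR. No source used here says whether counting used strand.

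The counts were tested with the edgeR 4.0.16 quasi-likelihood test in R 4.3.3 over 6 libraries (mature FL-cDC2s, non-DCs and immature FL-cDC2s, 2 each), after edgeR's filter on low counts and TMM scaling, with Benjamini-Hochberg adjustment (threshold 0.05). The difference between cultures was tested in 1 fit to the 13 libraries. Per library, 46042095 to 71330242 reads fell in genes over the series, and a count of 3 reads was the floor. Floors and adjusted p-values cover counting error and the spread between these libraries only. The script was first tested on simulated data with 200 changed genes. Of its calls there, 11.4% were false for the comparison of subsets and 6.49% for the difference between cultures. It called 14% of 2-fold and 58% of 4-fold changes between subsets. For the difference between cultures it called 2% and 14% of them.

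The members and the 52 gene lists were chosen with earlier results of these data known. Of 830 genes in the lists, 102 were in more than 1 list. Named genes were the 4 markers, the sorting genes and the 10 most abundant genes of each subset. From the lists came up to 4 members per direction with the largest called change and those against their list's majority. The 15 largest called changes per direction were taken at 10 FPKM or more with no overlap between the subsets. For the difference between cultures, the 5 largest per direction were taken among genes called in opposite directions with at least 10 FPKM in a subset. Other named members were chosen after their values were seen, and some genes that the rule names are not reported here. Alternatives were DESeq2 1.42.0, library size alone, no low-count filter, fits of 4 and of 13 libraries, limma 3.58.1 on log2(FPKM + 1) and log2(FPKM + 0.1), limma over genes of at least 1 FPKM, a 2-fold threshold, a replicate block, and each library left out. A crossed block was added after seeing the data. Of 24532 gene identifiers, 24462 matched RefSeq (GRCm38.p6), which gave coordinates and promoters. Figures were drawn with matplotlib 3.10.9.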

Additional observations from a re-analysis of the deposited data

Results flagged for a closer look

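Of 70 genes called in opposite directions in the cultures, 10 are given, the 5 largest differences per direction at 10 FPKM or more in a subset. For each, the difference between mature FL-cDC2s and non-DCs ran opposite to the difference between GM-DCs and GM-Macs. Each direction passed the test, and the difference between them passed its own test, in the edgeR fit of 13 libraries. Values below are that difference between contrasts, as log2 with its standard error, and no explanation was tested. In 5 genes it was positive: 5.18 ± 0.43 for Palm, 4.37 ± 0.86 for Rnase6, 3.97 ± 0.40 for Cd81, 3.80 ± 0.71 for Adm and 3.75 ± 0.53 for Mycbp2. In the other 5 it was negative: -11.64 ± 2.55 for Atp6v0c-ps2, -7.85 ± 1.56 for Epb41l3, -6.56 ± 0.77 for Htra1, -5.85 ± 0.42 for Galm and -5.45 ± 0.60 for Esr1. Rnase6, a ribonuclease of phagocytes, had 37.5 and 37.9 FPKM in mature FL-cDC2s, against 5.46 and 6.92 FPKM in non-DCs, and 3.04 and 11.001 FPKM in GM-DCs, against 14.4 and 33.1 FPKM in GM-Macs. Adm, which encodes the peptide adrenomedullin, had 43.6 and 40.1 FPKM in mature FL-cDC2s, against 14.5 and 4.95 FPKM in non-DCs, and 2.81 and 4.77 FPKM in GM-DCs, against 11.6 and 12.8 FPKM in GM-Macs. Mycbp2, a ubiquitin ligase, had 9.50 and 13.4 FPKM in mature FL-cDC2s, against 1.97 and 2.00 FPKM in non-DCs, and 4.03 and 2.78 FPKM in GM-DCs, against 5.65 and 9.88 FPKM in GM-Macs. Esr1, the oestrogen receptor alpha gene, had 0.0375 and 0.0570 FPKM in mature FL-cDC2s, against 0.719 and 0.755 FPKM in non-DCs, and 11.96 and 10.5 FPKM in GM-DCs, against 5.75 and 2.97 FPKM in GM-Macs. Epb41l3, a membrane skeleton protein, had 0.120 and 0.199 FPKM in mature FL-cDC2s, against 1.83 and 2.18 FPKM in non-DCs, and 15.8 and 9.33 FPKM in GM-DCs, against 1.32 and 0.0527 FPKM in GM-Macs. Atp6v0c-ps2, a pseudogene of the proton pump ring, had 0.946 and 1.02 FPKM in mature FL-cDC2s, against 47.2 and 8.09 FPKM in non-DCs, and 2.46 and 480.4 FPKM in GM-DCs, against 1.28 and 2.92 FPKM in GM-Macs, so that 1 GM-DC library carried its GM-BM level. The difference between contrasts no longer passed the test without 1 library for 3 of the genes. For Rnase6 the adjusted p was 0.0673 without non-DC replicate 1 and 0.0575 without non-DC replicate 2. For Epb41l3 it was 0.0667 without mature FL-cDC2 replicate 1 and 0.0635 without mature FL-cDC2 replicate 2. For Atp6v0c-ps2 the call was lost without any of 6 libraries (mature FL-cDC2 replicate 1 or 2, non-DC replicate 1, GM-DC replicate 2, GM-Mac replicate 1 or 2), with adjusted p from 0.0652 to 0.107, and the difference was -4.97 without GM-DC replicate 2. The fall of Htra1 in FL-BM culture had an adjusted p = 0.0841 without mature FL-cDC2 replicate 1.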

How the results depend on the processing

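Of 767 named and listed genes tested, 613 passed, 497 of them under each alternative that gave a value, of 15 in all, and 116 not under at least 1; all 613 kept their direction, except Cebpb. Cebpb, at 66.4 and 0.768 FPKM in the non-DC libraries, went to a log2 of 1.18 without non-DC replicate 1 and ranged from -5.19 to 1.18 over the left-out libraries. With a library left out, 2172 to 2866 genes were higher and 2549 to 3050 lower, and the difference between cultures counted 469 to 1570 genes, each with fewer libraries and the spread of the lone library taken from the other subsets. That difference counted 2473 genes with DESeq2 and 2170 with limma on log2(FPKM + 1), against 1271, and the cause was not tested. Library size alone, with 4233 genes higher and 3063 lower, moved the median of all genes from 0.065 to 0.28.

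The labels do not say whether replicate numbers mark a shared culture or day. Same-numbered mature FL-cDC2 and non-DC libraries deviated oppositely (r = -0.27 across 13242 genes, which are not independent), as did mature and immature FL-cDC2s (r = -0.24), whereas non-DCs and immature FL-cDC2s deviated together (r = 0.17). With 2 libraries per subset, these correlations cannot decide whether same-numbered libraries were handled together. With the replicate block 2936 genes were higher and 3174 lower, and the culture difference counted 1169. With the numbers crossed, 3610 genes were higher and 3726 lower. Depth limits calls at low levels, where 3 reads stand for up to 0.0639 CPM in these 4 libraries.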
